A study of Mus musculus with 768 samples.

Results

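Pi16, Dpp4, Cd34, Ly6a, Ly6c1 and Dpep1, 6 of the 24490 endogenous genes in the tables, were described by their gene symbols as a set of universal fibroblast genes, together with Lrrc15 and Mmp13 as the genes against which exclusion was examined. The cells came from 2 mammary tumors of 14-week-old FVB/N-Tg(MMTVPyVT)634Mul/J mice, in which the promoter of the mouse mammary tumor virus drives the polyoma middle T antigen in the mammary epithelium. All cells were labelled cancer-associated fibroblasts (CAFs) and had been sorted as EpCAM-, CD45-, CD31- and NG2- before Smart-seq2, a full-length RNA-seq protocol for single cells, with 1 cell per well and 384 wells per tumor. There was no untreated group and no tumor-free tissue. A plate held the cells of a single tumor. Tumor and plate cannot be told apart for this reason, replication is by tumor (n = 2), and no p-value was computed over wells. Of the 768 wells, 727 had at least 10000 non-ERCC reads and were kept, 373 from tumor 1 and 354 from tumor 2. A well was called Dcn-high where Dcn, the matrix proteoglycan decorin, reached 100 RPKM (reads divided by gene model length and by mapped reads), which held for 95 wells of tumor 1 and 90 of tumor 2, 25.4% of the kept wells over both.

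Pi16, a peptidase inhibitor of the cell surface, and Dpp4, a surface dipeptidyl peptidase also known as CD26, mark fibroblasts of the adventitia and the fascia that recur across mouse tissues and are regarded as a reservoir from which more specialized fibroblasts arise. Cd34 is a sialomucin of the cell surface shared by haematopoietic progenitors, vascular endothelium and resting stromal fibroblasts. Ly6a, which encodes the stem cell antigen Sca-1, and Ly6c1 are small GPI-anchored surface proteins of the Ly6 family, and Dpep1 is a membrane dipeptidase that also cleaves leukotrienes. Lrrc15, a leucine-rich repeat membrane protein, marks myofibroblast-like CAFs under TGF-beta, whereas Mmp13 is a secreted collagenase. Fibroblasts of tumors are often placed between a resting pole with the former genes and an activated pole with the latter.

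In GRCm38.p6, Pi16 spans chr17:29318796-29328903 on the plus strand, Dpp4 chr2:62330073-62412315 on the minus strand, Cd34 chr1:194938821-194961292 on the plus strand and Dpep1 chr8:123186235-123201812 on the plus strand. Ly6a (chr15:74994877-74998031) and Ly6c1 (chr15:75044018-75048920) are neighbours on the minus strand of one chromosome. Lrrc15 lies at chr16:30269302-30283254 on the minus strand and Mmp13 at chr9:7272514-7283333 on the plus strand. The bases just before the annotated start of Pi16 (chr17:29318632-29318795, plus strand) and Cd34 (chr1:194938571-194938820, plus strand) are shown beside those of Lrrc15 (chr16:30283255-30283504, minus strand) and Mmp13 (chr9:7272264-7272513, plus strand), because the last 2 carry a motif that was found in none of the universal genes' windows examined. Each reads 5′ to 3′ along its own strand, taken from RefSeq, and capitals mark the letters of the AP-1 motif.
Pi16: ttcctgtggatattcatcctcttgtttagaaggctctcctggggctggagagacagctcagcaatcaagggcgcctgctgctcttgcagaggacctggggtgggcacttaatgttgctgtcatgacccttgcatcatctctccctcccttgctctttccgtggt
Cd34: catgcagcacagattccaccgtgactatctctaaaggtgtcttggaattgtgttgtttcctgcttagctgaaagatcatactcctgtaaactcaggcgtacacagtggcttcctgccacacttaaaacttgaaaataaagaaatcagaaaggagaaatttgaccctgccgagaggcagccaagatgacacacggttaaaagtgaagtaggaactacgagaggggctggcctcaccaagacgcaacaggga
Lrrc15: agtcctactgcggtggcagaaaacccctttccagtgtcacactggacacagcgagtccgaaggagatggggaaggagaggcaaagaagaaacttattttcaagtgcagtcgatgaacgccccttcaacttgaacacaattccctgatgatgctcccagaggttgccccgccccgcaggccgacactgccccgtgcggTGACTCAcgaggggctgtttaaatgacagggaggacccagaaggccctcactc
Mmp13: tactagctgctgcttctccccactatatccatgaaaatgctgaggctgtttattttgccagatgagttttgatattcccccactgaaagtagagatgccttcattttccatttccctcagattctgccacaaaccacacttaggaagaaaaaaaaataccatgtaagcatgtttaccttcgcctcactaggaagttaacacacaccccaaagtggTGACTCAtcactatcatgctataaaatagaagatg
The motif searched was TGACTCA or, on the other strand, TGAGTCA. It began 53 bases before the start of Lrrc15 and 35 bases before that of Mmp13. None of the windows of Pi16, Dpp4, Cd34, Ly6c1 and Dpep1 held it. Those of Pi16, Dpp4 and Ly6c1 were shorter, at 164, 166 and 167 bases, than those of Cd34, Dpep1, Lrrc15 and Mmp13, at 250 bases, and so had less room for a match. The upstream bases of Ly6a were not examined here. Over the windows of all genes, 1466 of 32851 held the motif (4.46%). A match in these letters is a description of the sequence only.

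Nearly all reads of the universal fibroblast genes came from Dcn-high wells. Between 94.4% (Ly6c1, tumor 1) and 99.8% (Dpep1, tumor 2) of the reads of a gene in a tumor fell in this class. Dcn-high wells held a mean of 2.41 of the 6 genes in tumor 1 and 2.20 in tumor 2, compared with 0.313 and 0.258 in the other wells. The class was described by marker lists, which were chosen with earlier results of these data known and are no independent check of it. All 9 matrix CAF markers other than Dcn were higher in it, with a median log2 fold change of 5.24, and all 8 vascular CAF markers were lower, with a median of -3.84. The endothelial genes Cdh5, Tie1 and Cldn5 were at 0 in every Dcn-high well, although single wells held other endothelial genes, up to a summed 1430 RPKM. A read of Epcam, Pecam1, Cdh5 or Ptprc was found in 6 and 15 Dcn-high wells. At least 100 RPKM of Rgs5, a marker of pericytes and perivascular CAFs, was found in 11 and 9. Median depth was 266725 and 227850 reads per well in the Dcn-high class and 201498 and 189198 in the rest.

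Ly6a was the most abundant gene of the set per gene length. Over Dcn-high wells it ranged from 0 to 5162 RPKM in tumor 1 with a median of 98.4, and from 0 to 6555 in tumor 2 with a median of 155. It was read in 57 of 95 wells (60.0%, exact binomial 95% interval 49.4 to 69.9%) and in 59 of 90 (65.6%, 54.8 to 75.3%). The tumors overlapped for this gene, as they did for all others. Pi16 ranged from 0 to 2056 RPKM (median 39.2) and from 0 to 1049 (median 0). It was read in 61 wells of tumor 1 (64.2%, 53.7 to 73.8%) and 42 wells of tumor 2 (46.7%, 36.1 to 57.5%). After every well was thinned to 50000 reads the shares were 56.8% and 46.5%. The intervals of the tumors overlapped, and intervals here cover counting error only.

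Each of the remaining members was read in fewer than 50% of the Dcn-high wells. Dpep1 was read in 44 wells (46.3%) and 32 wells (35.6%), with highest values of 409 and 484 RPKM. Ly6c1 was read in 34 (35.8%) and 32 (35.6%), with highest values of 3451 and 3135 RPKM. Cd34 was read in 25 (26.3%) and 30 (33.3%), with highest values of 1805 and 1875 RPKM. Their medians were therefore 0 in both tumors, and where a gene was read its median level was 53.4 and 47.1 RPKM for Cd34, 96.8 and 146 for Ly6c1, and 54.7 and 74.1 for Dpep1. Dpp4 was the rarest member. It was read in 8 wells of tumor 1 (8.42%, 3.71 to 15.9%) and 3 wells of tumor 2 (3.33%, 0.693 to 9.43%), with highest values of 168 and 73.1 RPKM. By mean RPKM, Ly6a (501 and 551) stood above all, Pi16 (153 and 105), Ly6c1 (134 and 155), Cd34 (52.2 and 81.4) and Dpep1 (44.5 and 40.1) lay between, and Dpp4 (5.32 and 1.33) was lowest. Pi16 (129 ± 33.8, SD, n = 2 tumors) and Ly6c1 (144 ± 14.4) were neighbours that did not differ beyond this spread, with their order changed between the tumors. Cd34 (66.8 ± 20.7) lay above Dpep1 (42.3 ± 3.16) in both. Lrrc15 was read in 82 and 70 wells (mean 406 and 380 RPKM) and Mmp13 in 36 and 28 (mean 298 and 289 RPKM).

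**Figure D1:**
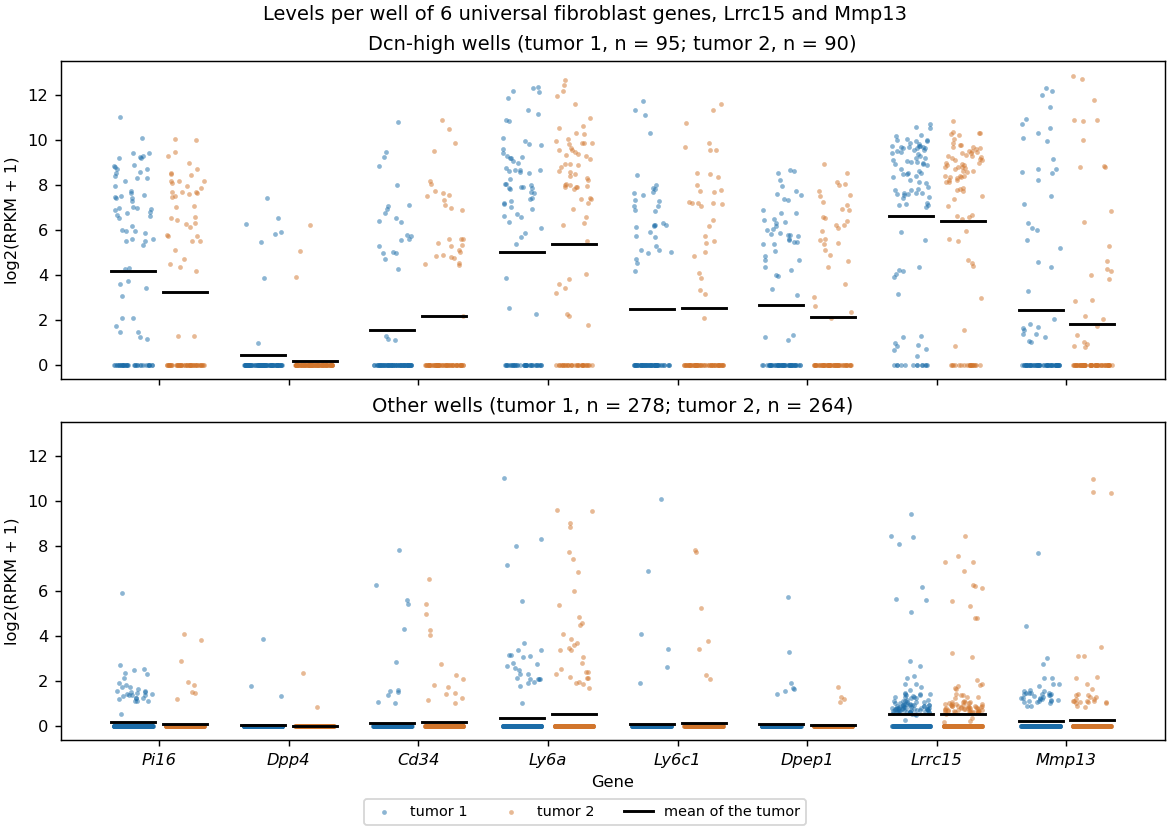
Level of each gene in each well, as log2(RPKM + 1), in Dcn-high wells (top) and other wells (bottom). Points are wells, colors are tumors and bars are means over the wells of a tumor. Ly6a and Pi16 fill most of the range in the Dcn-high wells, Dpp4 is at 0 in all but 8 and 3 of them, and in the other wells the bars of all 8 genes lie near 0.

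Few wells carried most of the transcripts of the rarer genes. The 5 highest wells held 70.9% and 70.4% of all Cd34 reads in tumor 1 and tumor 2. For Ly6c1 they held 63.0% and 66.4%, and for Dpp4 90% and 100%. Pi16 was spread more evenly, with 35.3% and 34.5% in its 5 highest wells. For Ly6a the share was 47.7% and 47.5%, and for Dpep1 38.2% and 51.6%. The means of Cd34, Ly6c1 and Dpp4 thus rest on few cells.

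Outside the Dcn-high class reads of the set were sparse, although single wells reached 2067 RPKM of Ly6a and 1096 of Ly6c1 in tumor 1. Pi16 was read in 31 of 278 wells of tumor 1 (11.2%) and 8 of 264 of tumor 2 (3.03%), with a median of 1 read where it was read. Ly6a was read in 28 and 32 of these wells, Cd34 in 12 and 15, Ly6c1 in 6 and 7, Dpep1 in 7 and 4, and Dpp4 in 3 and 2. Thinned to 50000 reads, the share for Pi16 was 4.14% and 1.67%. The part of free RNA in these shares was not tested. The 20 Dcn-high wells with at least 100 RPKM of Rgs5 were likewise sparse in the set. Dpep1 and Ly6c1 had no read in any of them, and Pi16 had 3 reads in 3 of the 11 wells of tumor 1 and none in the 9 of tumor 2. Ly6a had 1 read in all, and Cd34 had 23 reads and Dpp4 5 in 1 well each of tumor 2. Counts of 0 in 11 and 9 wells allow shares of up to 28.5% and 33.6% (exact binomial).

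**Figure D2:**
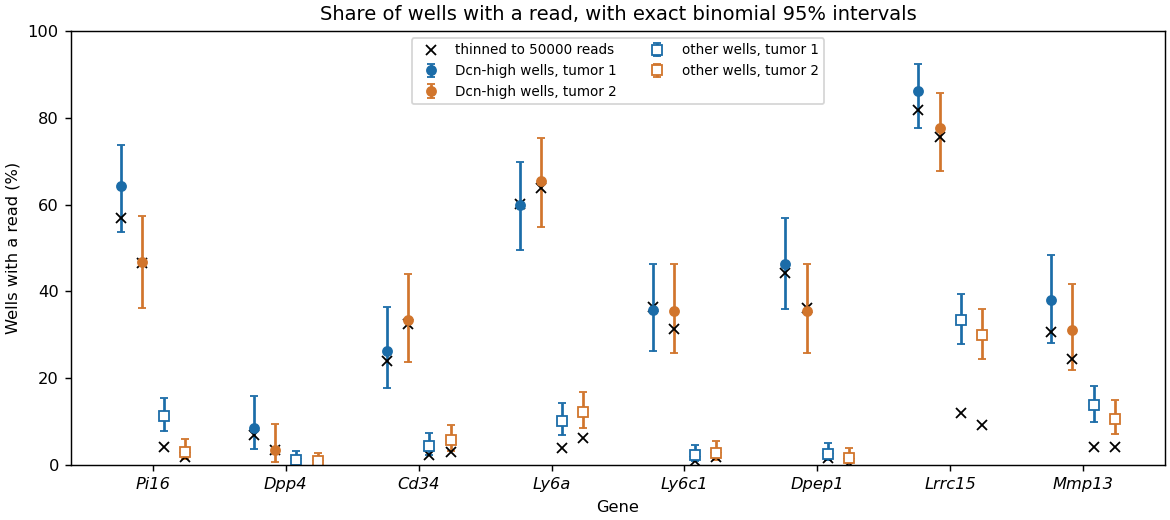
Share of wells with at least 1 read of each gene, in percent, with exact binomial 95% intervals. Filled circles are Dcn-high wells, open squares other wells, colors tumors, and crosses the share after thinning to 50000 reads per well. The shares of Pi16, Ly6a, Cd34, Ly6c1 and Dpep1 in Dcn-high wells lie above those in other wells in both tumors, whereas for Dpp4 in tumor 2 the intervals overlap (3.33% and 0.758%).

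To test the difference between the classes, reads were summed per tumor and class into 4 libraries. Pi16 counts scaled to library size (CPM) were 399 and 284 in the Dcn-high libraries of tumors 1 and 2, against 1.21 and 0.622 in the others. This is a log2 fold change of 8.53 (SE 0.44, edgeR quasi-likelihood test, Benjamini-Hochberg adjusted p = 0.00122). The log2 fold change of Dpep1 was 8.14 (SE 0.91, edgeR adjusted p = 0.00498), from 111 and 117 CPM against 0.727 and 0.0691. Pi16 was ahead of Dpep1 in tumor 1 (8.30 against 7.16) and behind it in tumor 2 (8.72 against 9.95). Ly6c1 rose by 6.59 (SE 0.63, adjusted p = 0.00329), Cd34 by 6.42 (SE 0.37, adjusted p = 0.00134) and Ly6a by 6.25 (SE 0.43, adjusted p = 0.00165). All 5 members that were tested were higher, among 967 of 11714 genes called higher (8.26%), with 654 lower. Tested genes had a mean of at least 1 RPKM over all wells, which Pi16 and Dpep1 reached only through the Dcn-high wells. In the other wells of tumors 1 and 2 their means were 0.450 and 0.174 RPKM (Pi16) and 0.257 and 0.0236 RPKM (Dpep1). Their calls are therefore not independent of the filter. With ERCC totals as library size, all 5 were again higher, among 2828 genes higher (24.1%) and 433 lower (3.7%). Without the Rgs5 wells, left out after the data were seen, all 5 stayed higher. Dpp4 had a mean of 0.891 RPKM over all wells and missed the filter of 1. Without this filter its log2 fold change was 6.29 (edgeR, adjusted p = 0.0103). Lrrc15 and Mmp13 were higher in the same class, by 6.22 (adjusted p = 0.00120) and 6.25 (edgeR adjusted p = 0.0396, and 0.118 with the Dcn limit at 300 RPKM). At an adjusted p of 0.001 none of the 5 members passed.

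Genes associated with the Pi16 progenitor state in other tissues were called in smaller part than the members. Of 17 tested, 4 were higher in Dcn-high wells and 1 was lower (8.26% and 5.58% of all genes tested were called higher and lower), with a median log2 fold change of 0.45 beside -0.03 over all genes. DESeq2 called 7 of the 17 higher and 2 lower, where it called 12.9% and 9.91% of all genes. Scaled by ERCC totals, edgeR called 9 higher and 1 lower, where it called 24.1% and 3.7% of all genes, and the list's median was 1.07 where that of all genes was 0.56. Wnt2, a signalling ligand, rose by 6.76, Mfap5, a microfibril protein, by 6.48, Igfbp6, which binds insulin-like growth factor, by 6.03, and Cd55, a complement regulator, by 3.72. Cd248, the surface protein endosialin that pericytes also carry, fell by 1.27. Of 8 genes of Col15a1 and Dpt resting fibroblasts, 4 were higher (Penk, Clec3b, Hsd11b1 and Dpt) and none lower, with a median of 3.94, or 7 higher with ERCC totals, beside 24.1% of all genes. Of 17 tested genes of the Lrrc15 CAF programme, 10 were higher and 1 was lower (Acta2, the smooth muscle actin), with a median of 1.80. Of 9 inflammatory CAF genes, 5 were higher and none lower, with a median of 2.12. Among them were C3 (7.25), the hyaluronan synthase Has1 (6.86), the alarmin Il33 (4.55) and the chemokine Ccl7 (3.07).

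Within the Dcn-high class the members were read together. Of the 25 wells with Cd34 in tumor 1, 20 also held Pi16 (80.0%), compared with 41 of 70 wells without Cd34 (58.6%). In tumor 2 the numbers were 22 of 30 (73.3%) and 20 of 60 (33.3%). Ly6c1 was read in 30 of 61 wells with Pi16 (49.2%) and 4 of 34 without (11.8%), and in tumor 2 in 26 of 42 (61.9%) and 6 of 48 (12.5%). Dpep1 followed Pi16 in the same way, in 36 of 61 wells against 8 of 34 and in 22 of 42 against 10 of 48. The thinned wells kept the direction of these pairs in both tumors, with Pi16 in 17 of 21 Cd34 wells against 33 of 67, and 21 of 28 against 19 of 58.

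Rank correlations were computed over the 95 and 90 Dcn-high wells. They are descriptions, because the wells of a tumor share a plate and differ in depth, and zeros tie. Ly6a and Ly6c1 had the highest Spearman's rho of any pair in the set, 0.57 in tumor 1 and 0.64 in tumor 2. The paralogs can share reads, since 17.8% of the 43-base words in the exons of Ly6a also occur in Ly6c1 and 12.9% of those of Ly6c1 occur in Ly6a. Of the words of Ly6c1, 24.7% occur in Ly6c2, so the counts of Ly6c1 are uncertain where the counting could split such reads. Pi16 correlated with Ly6c1 (0.44 and 0.61), Cd34 (0.40 and 0.45), Dpep1 (0.44 and 0.38) and Ly6a (0.33 and 0.45). The correlations of Dpp4 with the other members lay between 0.10 and 0.32, on 8 and 3 wells with a read. All 15 pairs among the 6 genes were positive in both tumors. Wells with Pi16 also had more Dcn than wells without, with medians of 2170 against 1320 RPKM in tumor 1 and 2123 against 760 in tumor 2, and a lower ERCC share (6.39% against 7.04% and 5.70% against 8.95%). The correlations also included the 11 and 9 wells with at least 100 RPKM of Rgs5, which were sparse in the set. The part of these wells, of Dcn and of the ERCC share in the correlations was not tested.

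**Figure D3:**
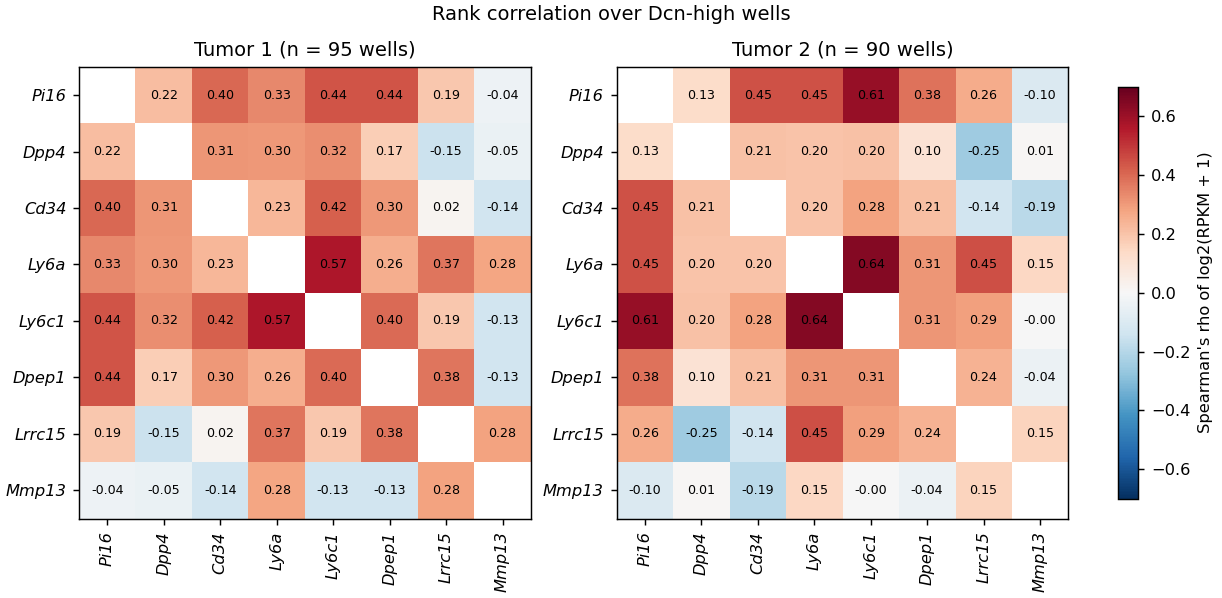
Spearman's rho of log2(RPKM + 1) between the 6 universal fibroblast genes, Lrrc15 and Mmp13 over the Dcn-high wells of tumor 1 (95 wells) and tumor 2 (90 wells). The cells among the 6 genes are all above 0, up to 0.64 for Ly6a and Ly6c1, while Mmp13 is near or below 0 with every member but Ly6a.

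Genes were ranked by the lower of the 2 correlations, out of 8254 compared. For Cd34 the nearest gene was Pi16, followed by the sialyltransferase St3gal1, S100a16, Dcn and the scavenger receptor Scara3, with likeness from 0.40 to 0.32. For Ly6c1 the first was Ly6a and the third Pi16, and for Ly6a they were Ly6c1, Pdpn, the mucin-type protein podoplanin, Igfbp6, Ly6e and Fbln2. For Ly6a, Lrrc15 was at rank 20, ahead of Pi16 (34), Dpep1 (137) and Cd34 (327). For Pi16 the nearest were Cilp, an extracellular matrix protein of cartilage and other connective tissue, Igfbp6, Ppap2b, a lipid phosphatase, Mfap5 and Ace, which converts angiotensin, with likeness from 0.59 to 0.47, and the other ranked members lay at ranks 11 to 30. Dpep1 was nearest to Ppap2b, Rnase4, Svep1, Mfap5 and Itgbl1, with Pi16 at rank 6 and Lrrc15 (83) ahead of Cd34 (141). Ppap2b thus stood among the first 5 of Pi16, Ly6c1 and Dpep1, and Igfbp6 among those of Pi16, Ly6a and Ly6c1. The nearest genes of Lrrc15 were the collagens Col12a1 and Col1a1, then Fbln2, Spon1 and Svep1. Dpp4 was read in too few wells to be ranked.

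When a single read was counted as presence, 4 of the 6 members (Pi16, Ly6a, Ly6c1 and Dpep1) were read in larger shares of the wells with Lrrc15 than of those without. Dcn-high wells with Lrrc15 held a mean of 2.68 and 2.41 members, and those without held 0.692 and 1.45. Pi16 was read in 58 of 82 wells with Lrrc15 and 3 of 13 without in tumor 1, and in 36 of 70 and 6 of 20 in tumor 2. Ly6a was read in 55 of 82 and 2 of 13, and in 53 of 70 and 6 of 20. Dpep1 was read in 43 of 82 and 1 of 13, and in 30 of 70 and 2 of 20. Ly6c1 was read in 33 of 82 and 1 of 13, and in 28 of 70 and 4 of 20. The share was higher beside Lrrc15 for these 4 genes in both tumors. The intervals of the shares were apart for Pi16, Ly6a and Dpep1 in tumor 1 and for Ly6a in tumor 2, and overlapped otherwise. Cd34 differed between the tumors, with 24 of 82 against 1 of 13 in tumor 1 and 22 of 70 against 8 of 20 in tumor 2. Dpp4 was read in 7 of 82 against 1 of 13 in tumor 1, and in 0 of 70 (exact upper limit 5.13%) against 3 of 20 in tumor 2. Spearman's rho with Lrrc15 was 0.37 and 0.45 for Ly6a, 0.38 and 0.24 for Dpep1, 0.19 and 0.26 for Pi16, 0.19 and 0.29 for Ly6c1, 0.018 and -0.14 for Cd34, and -0.15 and -0.25 for Dpp4, the only member negative in both tumors. Wells without Lrrc15 were shallower (medians of 198251 and 190825 reads against 283133 and 237718) and held more of the summed vascular CAF markers (medians of 1151 and 146 RPKM against 29.4 and 30.2), whose part in these counts was not tested.

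No member differed between these classes past the threshold in summed reads. Cd34 had 143 CPM in wells with Lrrc15 and 11.9 in wells without in tumor 1, but 71.5 and 810 in tumor 2, opposite directions with log2 fold changes of 3.57 and -3.50 (fit -1.94, SE 1.70, edgeR adjusted p = 0.823). Ly6c1 had 98.2 against 7.42 CPM in tumor 1 and 95.8 against 428 in tumor 2, again in opposite directions. Ly6a had 557 against 217 CPM and 519 against 1118. Dpp4 had 23.6 against 24.5 CPM in tumor 1, and in tumor 2 0 reads with Lrrc15 against 153 without (37.1 CPM). Its fit gave -1.38 (SE 2.25, edgeR adjusted p = 0.916). Dpep1 was higher in wells with Lrrc15 in both tumors, at 118 against 0.371 and 134 against 17.7 CPM (log2 fold change 3.76, SE 1.39, adjusted p = 0.525), and so was Pi16, at 415 against 47.1 and 275 against 236 CPM (1.28, SE 0.80, adjusted p = 0.724). edgeR called 0 of the 6 members and 0 of 11414 genes (0%) at an adjusted p of 0.05, with 1067 genes at an unadjusted p under 0.05, whereas DESeq2 called 357 genes (3.13%) and again 0 members. The median log2 fold change of the 6 was -0.74 beside 0.02 over all genes, and that of the 19 tested genes associated with the Pi16 progenitor state was -1.06, or -0.18 with the tumor as a replicate block. Of this list edgeR called 0 and DESeq2 1, as lower. Mmp13 had fewer summed reads beside Lrrc15, at 886 against 2132 and 1067 against 2238 CPM (-1.16, SE 0.24, edgeR adjusted p = 0.444, DESeq2 adjusted p = 0.000344). However, all 5745 and 9241 of its reads in wells without Lrrc15 came from 3 wells in each tumor. Of these reads, 3313 in tumor 1 and 9233 in tumor 2 came from a single well. By wells it went the other way, with Mmp13 read in 33 of 82 wells with Lrrc15 against 3 of 13 and in 25 of 70 against 3 of 20, with rho at 0.28 and 0.15. The fold change turned to 0.79 with Lrrc15 classed at its median RPKM, a limit chosen after the data were seen. Leaving out wells with at least 100 RPKM of Rgs5 left 6 wells without Lrrc15 in tumor 1, too few for a fit.

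The tumor 2 values of Ly6a and Ly6c1 rested on 2 wells without Lrrc15 in which all 6 members were read. These wells, and 4 such wells of tumor 1 with Lrrc15, were left out after the data were seen, by the members' own reads, and the values have no test. Scaled by total reads alone, Ly6a in tumor 2 was then at 490 CPM with Lrrc15 and 299.9 without, and Ly6c1 at 90.4 and 81.5, so that both turned. In tumor 1 they were at 395 against 222 and 34.9 against 7.61 CPM. Cd34 still differed in direction, at 64.1 against 12.2 and 67.5 against 420 CPM. Dpp4 was at 4.63 against 25.1 CPM in tumor 1, with 66 reads of a single well in the class without Lrrc15, and at 0 against 5 reads in tumor 2.

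The direction of Cd34 in tumor 1 depended on where the limit of Lrrc15 was set, through a single well. With at least 10 RPKM in place of 1 read, 73 wells of tumor 1 and 67 of tumor 2 counted as wells with Lrrc15, and 22 and 23 as wells without. By total reads alone, Cd34 was then at 97.2 CPM with Lrrc15 and 227 without in tumor 1, and at 69.2 and 787 in tumor 2 (fit -2.44, SE 0.61, edgeR adjusted p = 0.268). Of the 1091 Cd34 reads without Lrrc15 in tumor 1, 1044 came from 1 well with all 6 members and a single read of Lrrc15. By wells Cd34 was still read in 22 of 73 with Lrrc15 against 3 of 22 without. Without the wells that held all 6 members it was at 70.3 against 7.05 CPM in tumor 1 and 69.2 against 372 in tumor 2, with no test. At the 10 RPKM limit, with all wells, Ly6c1 was at 82.7 against 87.7 and 92.7 against 416 CPM, and Dpp4 at 13.7 against 60.1 and at 0 against 36.0. Without the wells that held all 6 members Ly6c1 was at 38.2 against 4.40 and 92.7 against 72.2 CPM, and Dpp4 at 5.07 against 14.5 and at 0 against 1.37. With all wells Ly6a differed in direction, at 518 against 390 and 502 against 1086 CPM. Pi16 (378 against 259 and 266 against 229 CPM) and Dpep1 (120 against 10.2 and 129 against 21.4) stayed higher beside Lrrc15 in both tumors.

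The number of members in a well was nearly equal with and without Mmp13. Wells with Mmp13 held a mean of 2.42 and 2.18 members and wells without 2.41 and 2.21. Pi16 was read in 24 of 36 wells with Mmp13 and 37 of 59 without, and in tumor 2 in 12 of 28 and 30 of 62. Cd34 was read in 8 of 36 wells (22.2%) against 17 of 59 (28.8%), and in 6 of 28 (21.4%) against 24 of 62 (38.7%). After thinning these became 4 of 27 against 17 of 61, and 2 of 21 against 26 of 65. Ly6a went the other way, in 26 of 36 against 31 of 59 and in 22 of 28 against 37 of 62. For all 6 members the intervals of the shares with and without Mmp13 overlapped in both tumors.

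In summed reads Ly6c1 and Dpep1 were lower beside Mmp13 in both tumors, without passing edgeR's threshold. Ly6c1 had 44.2 CPM with Mmp13 and 112 without in tumor 1, and 67.0 and 203 in tumor 2, a log2 fold change of -1.50 (SE 0.38, edgeR adjusted p = 0.999). Dpep1 had 52.5 against 132 and 79.7 against 119 CPM (-0.93, SE 0.29). Cd34 was at 124 and 122 CPM in tumor 1 and at 61.5 and 291 in tumor 2 (-1.15, SE 0.52). Pi16 was at 363 against 355 and 177 against 296 CPM. Ly6a was at 786 against 300 CPM in tumor 1 and at 432 against 710 in tumor 2, with log2 fold changes of 1.39 and -0.72 (fit 0.27, SE 0.47). Dpp4 was at 23.4 against 22.2 and 0.713 against 10.6 CPM (-0.44, SE 1.33). The tumors thus lay on opposite sides of 0 for Ly6a. Wells with Mmp13 were deeper than wells without (medians of 292126 and 246874 reads against 247019 and 210789). All 8 vascular CAF markers had negative log2 fold changes beside Mmp13 in both tumors, with a median of -1.50 beside -0.0018 over all genes and none called, and their part in these values was not tested. edgeR called 0 of 6 members and 0 of 11414 genes (0%), with 503 genes at an unadjusted p under 0.05. DESeq2 called 93 genes (0.815%) and 1 member, Ly6c1 (adjusted p = 0.0372), so the call for Ly6c1 depends on the tool.

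The near-equal Cd34 values of tumor 1 rested on 1 well. Of the 1255 Cd34 reads in wells with Mmp13, 1044 came from a well with all 6 members that counted as a well with Mmp13 by a single read. Without the wells that held all 6 members, by total reads alone and with no test, Cd34 was at 21.1 CPM with Mmp13 against 84.4 without in tumor 1, and at 59.9 against 159 in tumor 2. On the same basis Ly6c1 (18.7 against 41.1 and 65.3 against 102 CPM) and Dpep1 (50.7 against 106 and 77.7 against 122) stayed lower beside Mmp13. Pi16 was at 257 against 313 and 173 against 282 CPM, and Ly6a at 692 against 159 and 421 against 481. Dpp4 was at 2.50 against 9.82 CPM in tumor 1 and at 5 against 0 reads in tumor 2.

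Mmp13 itself had fewer summed reads beside Cd34 in both tumors, without passing the threshold. It had 50.9 CPM in Dcn-high wells with Cd34 and 1341 in those without in tumor 1, and 277 and 1845 in tumor 2, a log2 fold change of -3.28 (SE 0.75, edgeR adjusted p = 0.556). Of the Mmp13 reads, 65.8% and 83.3% came from the 5 highest wells of a tumor. Lrrc15 was at 2285 against 2589 and 1811 against 2640 CPM (-0.35, SE 0.21, edgeR adjusted p = 0.929), and turned to 0.079 with ERCC totals as library size. The other members were higher with Cd34 in both tumors without passing the threshold. Pi16 had 797 against 192 CPM and 435 against 151 (1.84, SE 0.33, adjusted p = 0.406). Ly6c1 had 245 against 23.3 and 320 against 62.1 CPM (2.73, SE 0.48, adjusted p = 0.394). Ly6a had 648 against 441 and 1143 against 308 CPM (1.26, SE 0.33, adjusted p = 0.628), and Dpp4 61.8 against 7.92 and 19.05 against 0.382 CPM (3.26, SE 1.26, adjusted p = 0.808). Dpep1 had 198 against 63.1 and 121 against 97.6 CPM (0.99, SE 0.35, adjusted p = 0.765). All 8 vascular CAF markers had negative log2 fold changes with Cd34 in both tumors, with a median of -2.09 beside -0.01 over all genes and 1 called. Median Dcn was 2994 RPKM with Cd34 against 1764 without in tumor 1, and 2379 against 1006 in tumor 2. The part of both in these values was not tested.

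The direction of Ly6a in tumor 1, and that of Dpp4 in both tumors, rested on the 4 and 2 wells that held all 6 members. These were left out after the data were seen, by the members' own reads, and the values have no test. Each held reads of Cd34 and of every other member by that rule, so only the class with Cd34 lost wells. Lower values of the members with Cd34 follow in part from the rule, above all for Dpp4. Scaled by total reads alone, Ly6a in tumor 1 was then at 197 CPM with Cd34 against 438 without, where it had been at 637 with those wells, while in tumor 2 it was at 733 against 310. Dpp4 was then lower with Cd34 in both tumors, at 3.83 against 7.87 CPM (24 reads with Cd34) and at 0 against 5 reads. Pi16 (576 against 191 and 410 against 152 CPM), Ly6c1 (57.4 against 23.2 and 138 against 62.3) and Dpep1 (143 against 62.7 and 122 against 98.0) stayed higher with Cd34 in both tumors. Mmp13 stayed lower, at 55.5 against 1332 and 302 against 1853 CPM.

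edgeR called 0 of the 5 members tested against Cd34 and 5 of 11414 genes (0.0438%, of which 0.0175% higher and 0.0263% lower), with 682 genes at an unadjusted p under 0.05. DESeq2 called 168 genes (1.47%) and 3 members, Pi16, Ly6a and Ly6c1, all higher. Without the filter on genes edgeR called 52 of 15530 genes (0.335%), among them Pi16 (adjusted p = 0.00842) and Ly6c1 (adjusted p = 0.00291). The 5 genes were Sfrp4, a secreted Wnt-binding protein, and Tnxb, the matrix protein tenascin-X, which were higher, and Rgs5, its relative Rgs4 and the chemokine Cxcl9, which were lower. Sfrp4 had 859 and 932 reads in 4 wells of each tumor with Cd34, and 0 reads in the 70 and 60 wells without. Tnxb rose by 6.66 (SE 0.34, edgeR adjusted p = 0.00765). Of the reads of Sfrp4 in wells with Cd34, 100% and 97.1% lay in 4 and 2 wells that held all 6 members, and of those of Tnxb 92.1% and 76.2%. Rgs5 fell by 5.30, and 97.9% and 98.5% of its reads in wells without Cd34 lay in wells with at least 100 RPKM of it. When those wells were left out, a step added after the data were seen, Sfrp4 alone was called. Cxcl9 came from 2 wells without Cd34 in either tumor, beside a single read with Cd34, and lost its call with the tumor as a replicate block (edgeR adjusted p = 0.129). Of the 19 tested genes associated with the Pi16 progenitor state, edgeR called 0, or 3 of 21 higher without the filter on genes, and DESeq2 called 11 higher, with a median edgeR log2 fold change of 1.89 beside -0.01 over all genes. Efhd1 (5.30), Sema3c (4.34), Dact2 (4.04) and Wnt2 (2.82) had the largest values. In wells with all 6 members Efhd1 was read in 2 of 4 and 2 of 2, Sema3c in 4 and 2, Dact2 in 0 and 2, and Wnt2 in 1 and 2. Among the other Dcn-high wells, Efhd1 was read in 2 of 91 and 1 of 88, Sema3c in 3 and 7, Dact2 in 6 and 8, and Wnt2 in 11 and 14.

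**Figure D4:**
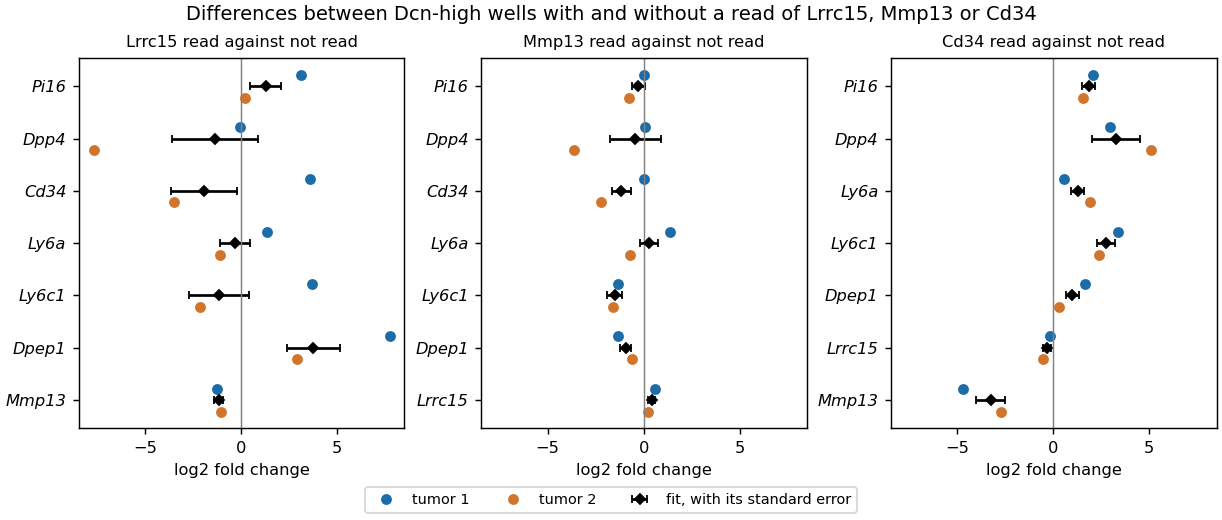
Log2 fold change of each gene between Dcn-high wells with and without a read of Lrrc15 (left), Mmp13 (middle) or Cd34 (right), from reads summed per tumor. Colored circles are the tumors and black diamonds the edgeR fit with its standard error. Against Lrrc15 the circles of Cd34, Ly6a and Ly6c1 lie on opposite sides of 0, and against Cd34 all 5 members lie to the right of 0 in both tumors.

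In 4 Dcn-high wells of tumor 1 and 2 of tumor 2 all 6 members had reads. By the single-read rule the 4 count as wells with Lrrc15 and the 2 as wells without. These wells were singled out after their values were seen, by the members' own reads, and the account is a description with no test. They held 70.5% and 96.7% of the Dpp4 reads of all Dcn-high wells of their tumor, 62.9% and 45.6% of Ly6c1, 53.4% and 44.3% of Cd34, and 25.9% and 28.2% of Ly6a. For Pi16 they held 20.7% and 8.56%, and for Dpep1 18.3% and 3.29%. The 4 wells of tumor 1 held 0.0657% of its Lrrc15 reads, and the 2 of tumor 2 none.

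The first of the 4 wells of tumor 1 had 2056 RPKM of Pi16, 168 of Dpp4, 1805 of Cd34, 4589 of Ly6a, 1276 of Ly6c1 and 46.4 of Dpep1, beside 0.785 of Lrrc15 and 1.56 of Mmp13, each a single read. The second had 384 of Pi16, 91.5 of Dpp4, 599 of Cd34 and 3769 of Ly6a, beside 17.5 of Lrrc15. Lrrc15 was at 13.9 and 7.77 RPKM in the remaining 2. Against a median of 278 RPKM over the Dcn-high wells of the tumor, all 4 were low in Lrrc15 but not at 0, and 22 other wells of the 95 were as low as the highest of them. In tumor 2 the wells had 628 and 205 RPKM of Pi16, 73.1 and 32.9 of Dpp4, 939 and 1422 of Cd34, and 6555 and 5650 of Ly6a. Both had 0 reads of Lrrc15 and of Mmp13. A further well of tumor 2 without Lrrc15 held 4 members, at 10.04 for Pi16, 10.87 for Cd34, 10.99 for Ly6a and 10.77 for Ly6c1 as log2(RPKM + 1), and no read of Dpp4 or Dpep1. In all, 20 of the 90 wells of tumor 2 had no read of Lrrc15. The depths of the 6 wells were 40875 to 230130 reads in tumor 1 and 158360 and 448052 in tumor 2.

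Cells with 5 members were unlike those with 6. All 9 such wells of tumor 1 had Lrrc15, from 178 to 848 RPKM, and so did all 9 of tumor 2, from 324 to 919 RPKM. The missing gene was Dpp4 in all but 1 of them, a well of tumor 1 with Dpp4 and no Cd34, where Lrrc15 was at 193 RPKM. The 13 wells of tumor 1 with 4 members had 171 to 1141 RPKM of Lrrc15, whereas in tumor 2 it was read in 7 of 9 such wells, from 0 to 1257 RPKM. The 4 other Dpp4 wells of tumor 1 had 0, 193, 494 and 1008 RPKM of Lrrc15. Among wells with no member, Lrrc15 was read in 8 of 15 and 6 of 17, with medians of 0.298 and 0 RPKM, and 8 and 7 of these wells had at least 100 RPKM of Rgs5. Low Lrrc15 was therefore met at both ends of the count of members. Among wells with at least 5 members, Mmp13 was read in 1 of 13 in tumor 1, at 1.56 RPKM, and in 3 of 11 in tumor 2, up to 114 RPKM. With 1 to 4 members it was read in 32 of 67 and 22 of 62 wells, up to 5124 and 6790 RPKM. With no member it was read in 3 of 15 and 3 of 17 wells, up to 386 and 7462 RPKM, the latter the highest value of any Dcn-high well.

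**Figure D5:**
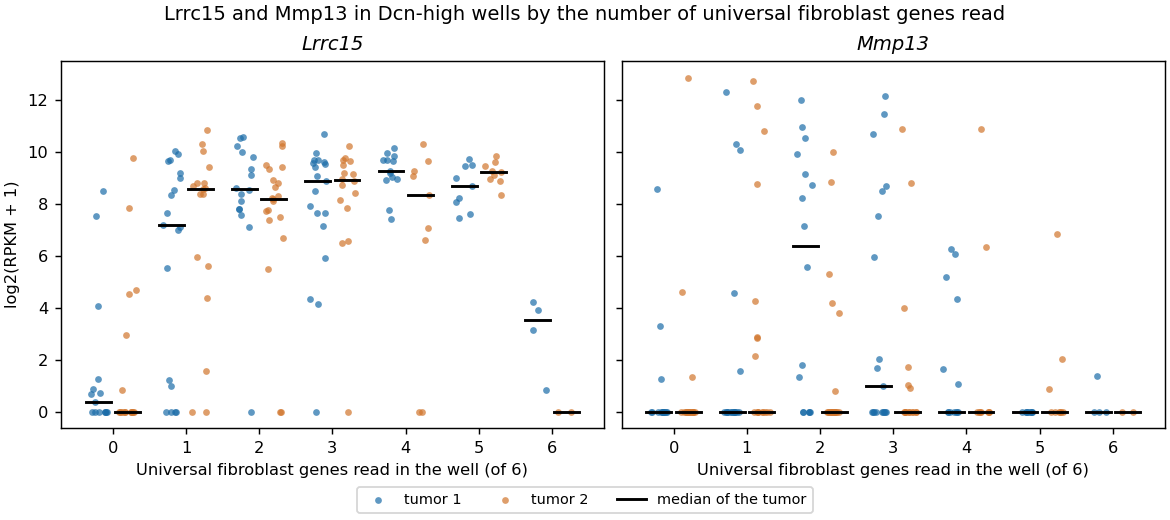
Level of Lrrc15 (left) and Mmp13 (right), as log2(RPKM + 1), in Dcn-high wells grouped by how many of the 6 universal fibroblast genes had a read. Points are wells, colors tumors and bars medians of a tumor. The median of Lrrc15 is 146 and 379 RPKM in wells with 1 member, from 295 to 624 RPKM in those with 2 to 5, and low in the wells with 0 (medians 0.298 and 0 RPKM) and 6 (medians 10.8 and 0 RPKM), while Mmp13 above 100 RPKM is found mainly in wells with 1 to 3 members.

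Some other genes of resting and progenitor fibroblasts were high in the 6 wells with the whole set and others were low. Of the 21 genes associated with the Pi16 progenitor state, 13 to 18 were read in those of tumor 1 and 17 and 19 in those of tumor 2, compared with a median of 7 in the other Dcn-high wells of either tumor. Dpt, the matrix protein dermatopontin, had 1859 to 3849 RPKM in tumor 1 and 1215 and 2453 in tumor 2, with a median of 0 in the other Dcn-high wells. Of the 8 resting fibroblast genes, medians of 6.5 and 6 were read, compared with 5 and 4 in the other Dcn-high wells. Among them the basement membrane collagen Col15a1 had medians of 6.27 and 0 RPKM, beside 32.8 and 45.3 in the others, and Smoc2, a secreted calcium-binding protein, had 219 and 0.368 beside 626 and 320. Clec3b, which encodes tetranectin, had 111 to 250 and 448 and 450 RPKM. C3, the central complement component, from the inflammatory list, had 17.9 to 1477 and 334 and 756 RPKM, and was read in 2 of the other 91 and 15 of the other 88 wells. Sema3c, a secreted guidance cue, had 16.7 to 249 and 95.6 and 223 RPKM, and was read in 3 and 7 of the others. These values came from the same cells by which the wells were picked.

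Genes of the Lrrc15 CAF programme went both ways in the same wells. Of 18, 9 to 12 were read in tumor 1 and 7 and 11 in tumor 2, compared with medians of 13 elsewhere. Col12a1, a fibril-associated collagen, had 0.711 to 45.8 and 10.3 and 22.8 RPKM, beside medians of 277 and 239 RPKM. Acta2 had 1.64 to 24.1 and 0 and 1.62 RPKM, beside medians of 135 and 53.5. Cthrc1, a secreted protein of collagen-producing cells, had 374 to 1737 RPKM in tumor 1, beside a median of 0, but 0 and 708 in tumor 2. The matrix CAF markers Lum and Pdgfra were read in all 6 wells, whereas Cxcl14 was at or below 15.99 RPKM in them, beside medians of 153 and 118. Of the 8 endothelial genes, 1 was read in each well of tumor 1 and 0 to 2 in tumor 2. The receptor gene Tek was read in 3 of the 4 and 1 of the 2 wells, up to 62.9 and 251 RPKM. Emcn was read in 1 well of tumor 1 at 14.5 RPKM. Pecam1, the gene of the CD31 used in the sort, was read in 1 well of tumor 2 at 10.95 RPKM. The vascular CAF marker Kcnj8, a potassium channel subunit, had 84.9 to 400.1 RPKM in the 4 wells of tumor 1, beside a median of 0 in the others, and up to 1.91 in tumor 2. Of the 8 vascular CAF markers, 3 to 5 were read in the wells of tumor 1 and 1 to 3 in those of tumor 2, compared with a median of 4 in the other Dcn-high wells. Besides Kcnj8, only Abcc9 and Rgs5 had higher medians in the 4 wells of tumor 1 than in the others, at 5.18 against 0.371 and 9.57 against 7.56 RPKM. Nr2f2 and Epas1 had medians of 0 there beside 7.92 and 7.05, Notch3 had 0.262 beside 1.66, and Higd1b and Des were at 0 in both. In tumor 2 Kcnj8 had a median of 0.953 beside 1.03 RPKM, Rgs5 2.88 beside 6.25 and Nr2f2 1.70 beside 3.15, and the 5 others were at 0. The part of these in the results was not tested. No mesothelial or adipocyte marker had a read in the 6 wells. Of the 8 cycling markers, Birc5 (97.6 RPKM), Mki67 (81.8), Ccnb1 (74.2), Nusap1 (23.7) and Cenpe (15.9) were read in 1 well of tumor 2. They summed to 293 RPKM there, and their medians in the other Dcn-high wells were 0. In tumor 1 only Cdk1 was read, in 1 of the 4 wells at 1.46 RPKM.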

How the data were processed

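Smart-seq2 libraries of 768 wells from 2 tumors were read single-end. The authors aligned to mm10 and deposited a table of raw counts per gene and well and a table of RPKM values, which they normalised to gene model length and mapped reads. Wells with at least 10000 non-ERCC counts were kept. No doublet caller was run. RPKM classed the wells (Dcn at 100) and filtered genes (mean of at least 1), and counts were summed per tumor and class, rows of the 92 ERCC spike-ins excluded. The main test was edgeR 4.0.16 (quasi-likelihood, TMM, R 4.3.3) on 4 libraries, with Benjamini-Hochberg adjustment over all genes tested and a threshold of 0.05. The gene defining a class was not tested. The p-values measure spread between 2 tumors.

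Pairing came from the tumor, since both libraries of a number were of the same animal. Same-numbered libraries correlated in their deviations at 0.184 (Dcn classes), 0.0338 (Lrrc15), 0.0305 (Mmp13) and 0.0982 (Cd34), and the tumor as a replicate block was an alternative, with 1866 genes called between the Dcn classes in place of 1621. Other alternatives were DESeq2 1.42.0, size factors, ERCC totals, equal well totals, other gene filters, depth and class limits, thinning to 50000 reads and leaving out marker-positive wells. Leaving out Dcn-high wells with at least 100 RPKM of Rgs5, leaving out wells with all 6 members from the Lrrc15, Mmp13 and Cd34 classes, and classing Lrrc15 at its median were chosen after seeing the data. On simulated data 72 of 100 genes with a log2 fold change of 2 were recovered for the Dcn classes, 79 for Lrrc15, 70 for Mmp13 and 75 for Cd34. The simulation gave every gene the same dispersion between libraries and changed only genes above a low limit of expected reads. Recovery of genes whose reads lie in few wells was not tested.

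The 6 genes, Lrrc15 and Mmp13 were always named. Lists were described by counts, median and up to 4 genes of largest change, and 5 genes of highest likeness were named where a gene was read in at least 20% of Dcn-high wells of each tumor; those of Mmp13 are not reported here. The members and lists were chosen with earlier results of these data known. Whether counting used strand is not given in the sources used here; 3.49% of the exonic bases of Pi16, 3.67% of Dpp4 and 2.03% of Cd34 overlap exons on the opposite strand.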

Additional observations from a re-analysis of the deposited data

Results flagged for a closer look

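The 41 wells left out for depth belong to no comparison, and some reads of these genes were found in them, above the limit of 3 reads that a count of 0 allows. In tumor 2, 30 such wells held 82010 reads in all, among them 11 of Ly6a in 2 wells, 43 of Lrrc15 in 5 wells and 115 of Mmp13 in 5 wells. In tumor 1, 11 such wells held 18245 reads, among them 5 of Lrrc15 in 5 wells. Pi16 (2 reads) and Dpep1 (1 read) in tumor 2 stayed under that limit.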

How the results depend on the processing

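Between the Dcn classes all 5 tested members kept their call except at an adjusted p of 0.001, where 0 genes and 0 members were called; DESeq2 called 2677 genes and ERCC totals as library size 3261. For Lrrc15, DESeq2 called 357 genes and the class at the median RPKM 32. For Mmp13, DESeq2 called 93 genes and 1 member. For Cd34, DESeq2 called 168 genes and 3 members, and no filter on genes 52 and 2. ERCC totals, leaving out wells with a read of Epcam, Pecam1, Cdh5 or Ptprc, the class from thinned reads and the class at 10 RPKM each called 3 genes, Dcn at 300 RPKM and leaving out the Rgs5 wells 1 gene, and an adjusted p of 0.001 0 genes. The cause of these changes was not tested.

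With the tumor as a replicate block 1866, 0, 0 and 6 genes were called for the Dcn, Lrrc15, Mmp13 and Cd34 classes, and no call of a member changed, but in the Lrrc15 classes Ly6a turned to 0.12 and Ly6c1 to 0.62 on the log2 scale. Ly6a also turned to 0.091 with ERCC totals and 0.20 with wells scaled to the same total, Mmp13 to 0.79 with Lrrc15 classed at its median, and Lrrc15 in the Cd34 classes to 0.079 with ERCC totals. ERCC totals moved the median of all genes to 0.56, 0.59, 0.25 and 0.42 in the 4 comparisons. Leaving out either tumor gives values with no test. In the Lrrc15 classes Cd34 then ranged from -3.50 to 3.57, Ly6a from -1.11 to 1.36 and Ly6c1 from -2.16 to 3.69. In the Mmp13 classes Pi16 ranged from -0.74 to 0.032, Dpp4 from -3.61 to 0.076, Cd34 from -2.24 to 0.023 and Ly6a from -0.72 to 1.39. Of the fold changes of the members and other named genes under the alternatives run 510 kept direction and side of the threshold, 39 lost the threshold, 8 gained it, 10 values without a test moved and 13 changed sign. The Lrrc15 classes without the Rgs5 wells could not be fitted, with too few wells. Thinning to 50000 reads moved the share of Dcn-high wells with Dpp4 from a mean of 5.88% to 5.15% and that with Mmp13 from 34.5% to 27.6%.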
